A study of Mus musculus with 8 samples.

Results

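The genes described here are 10 components of interleukin-6 (IL-6) family signaling, chosen by name: the ligands *Il6*, *Lif* and *Osm*, the receptor chains *Il6ra*, *Il6st*, *Osmr* and *Lifr*, the transcription factor *Stat3*, and the feedback inhibitors *Socs1* and *Socs3*. The choice was made with earlier results of these data known. All 10 were found among the 41709 genes with a measured mRNA level. The levels come from RNA-seq of tibialis anterior (TA) muscles of male C57BL/6J mice that were 3 months old at electroporation. In each mouse, 1 TA muscle received a pool of 4 siRNAs against *Uba1*, which encodes the E1 enzyme at the start of the ubiquitin cascade, and the contralateral muscle received control non-targeting (NT) siRNAs. Muscles were collected 7 days later, with 4 muscles in each group, and equal replicate numbers mark the 2 legs of a mouse. No untouched muscle was among the samples, so both groups had been injected and electroporated. All NT muscles were right legs and all *Uba1* siRNA muscles were left legs, so leg and siRNA cannot be told apart. The treatment tags name UBA2, UBA3 and UBA4 for replicates 2, 3 and 4 of the *Uba1* siRNA group, whereas the titles and descriptions name UBA1 for all 4.

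IL-6, LIF and oncostatin M are secreted cytokines that signal through receptor complexes sharing the chain gp130, the product of *Il6st*. Receptor-bound JAK kinases phosphorylate STAT3, which enters the nucleus and switches on target genes, among them *Socs3*. SOCS3 in turn binds the activated receptor and shuts the signal down, and its SOCS box recruits a ubiquitin ligase. In skeletal muscle, IL-6 is known as a cytokine released on contraction and injury, and LIF and gp130 signaling are known for their roles in muscle repair and wasting. The comparison asks whether the mRNAs of this pathway differed between muscles with *Uba1* and NT siRNAs.

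*Il6* and *Socs3* stood lowest relative to NT of the 10 genes, while the receptor chains and *Stat3* lay within 1.23-fold of their NT level in either direction. Mean *Il6* mRNA with *Uba1* siRNAs was 18.0% of that with NT siRNAs, and mean *Socs3* mRNA was 46.8%. Both were lower in 4 of 4 mice. Neither passed an adjusted p of 0.05 without pairing the legs of a mouse, and *Socs3* passed when they were paired. The promoters of these 2 genes are shown first because they are the members with the lowest levels relative to NT, and because they carry matches to motifs of factors that are known to act on them.

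The 250 bases before the start of *Il6* (RefSeq sequence, placed at chr5:30217862-30218111 of GRCm39, plus strand) are given with 2 matches in capitals. The first is an AP-1 motif (TGANTCA, from base -249 to -243 relative to the start) and the second is the kappaB consensus, the motif bound by NF-kappaB (-44 to -35). For *Socs3*, only the 30 bases around its STAT motif (TTCNNNGAA, from -154 to -146) are shown (chr11:117860327-117860356, minus strand), because annotated exons of other *Socs3* transcripts share bases with the rest of the window, and an exon of 1 of them also covers these 30 bases.
Il6: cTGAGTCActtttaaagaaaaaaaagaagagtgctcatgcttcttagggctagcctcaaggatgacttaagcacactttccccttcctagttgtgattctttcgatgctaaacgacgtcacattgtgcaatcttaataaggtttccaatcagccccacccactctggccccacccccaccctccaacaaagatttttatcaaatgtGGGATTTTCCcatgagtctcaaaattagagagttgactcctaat
Socs3: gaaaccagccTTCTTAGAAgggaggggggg

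Promoter sequences were found for 9 of the 10 genes, *Osm* being without one, and both strands were searched. The STAT motif matched in 1 of the 9, *Socs3*, against 7.02% of 32851 promoters of the same length. The AP-1 motif matched in *Il6* and in *Lif* (-228 to -222), against 6.75% of all promoters. The kappaB consensus matched in *Il6* and again in *Lif* (-178 to -169), against 7.25%. No match overlapped another. A match describes the letters of the window and is not evidence that a factor bound there.

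Levels are given as transcript abundances (TPM), which are scaled by transcript length and by the total of each muscle, so genes can be ranked against each other. In the NT muscles the order by mean TPM was *Il6st* (33.1 ± 0.882), *Socs3* (28.1 ± 9.35), *Stat3* (17.5 ± 1.00), *Lifr* (7.87 ± 0.718), *Il6* (4.23 ± 1.63), *Osmr* (2.31 ± 0.239), *Il6ra* (1.69 ± 0.461), *Osm* (0.693 ± 0.339), *Lif* (0.491 ± 0.107) and *Socs1* (0.412 ± 0.156; SD, n = 4 muscles each). The shared chain gp130 and the inhibitor *Socs3* were thus the most abundant of the mRNAs, and the ligands *Lif* and *Osm* and the inhibitor *Socs1* the least. The ranges of the 4 muscles overlapped between these neighbors: *Il6st* and *Socs3*, *Il6* and *Osmr*, *Osmr* and *Il6ra*, *Osm* and *Lif*, and *Lif* and *Socs1*. With *Uba1* siRNAs, *Socs3* stood below *Stat3* in mean TPM with overlapping ranges, and *Il6* stood below *Osmr* and *Il6ra*, next to *Osm*, whose range overlapped its own.

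**Figure D1:**
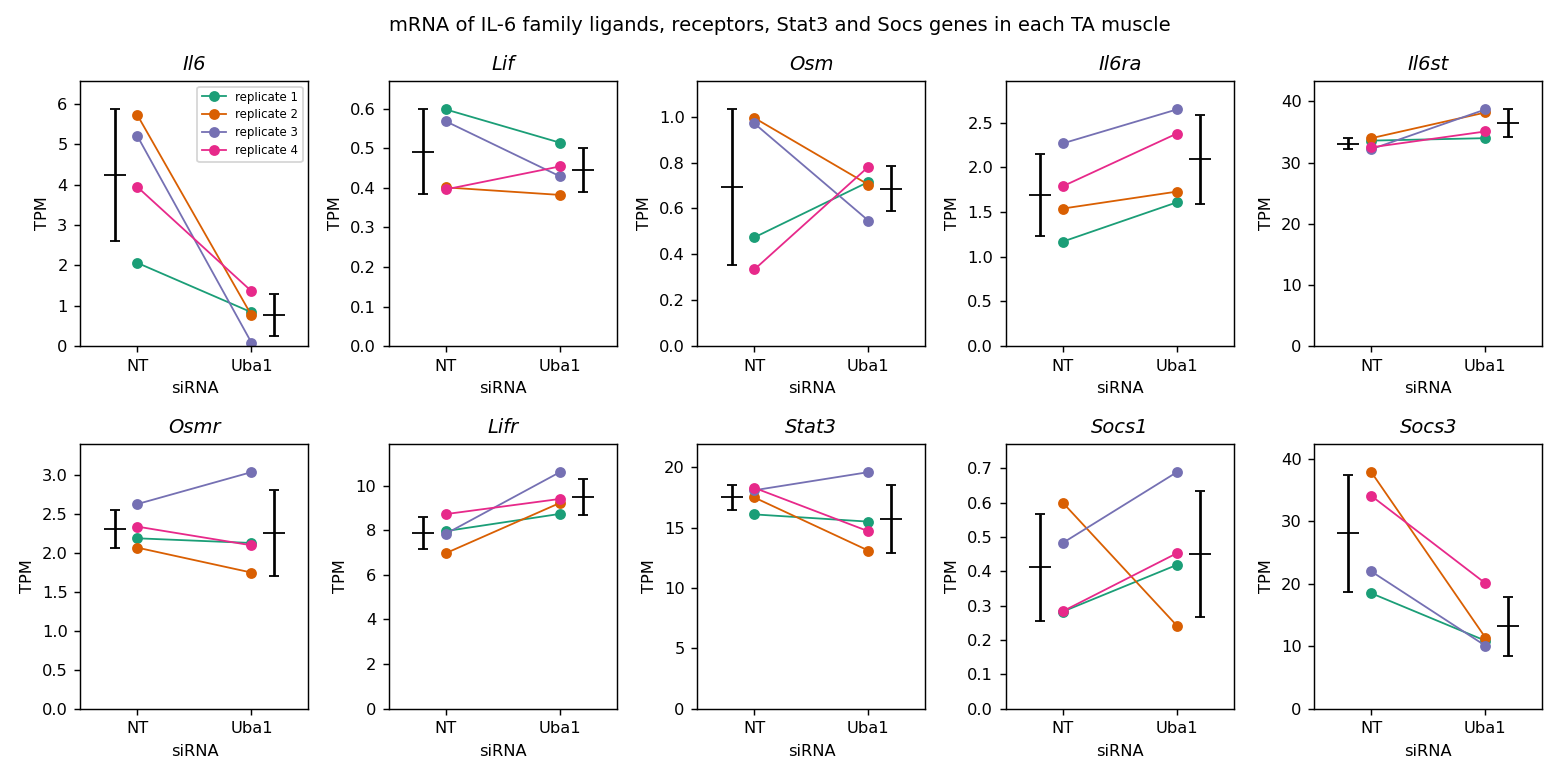
TPM of the 10 genes in each TA muscle with NT or *Uba1* siRNAs, with a line joining the 2 legs of a mouse and with the mean and SD of each group (n = 4 muscles) as a bar at its side. All lines of *Il6* and *Socs3* slope down and all lines of *Il6ra*, *Il6st* and *Lifr* slope up, while those of the other genes run both ways.

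The knockdown and the make-up of the muscles were checked first. *Uba1* mRNA was at 60.6 ± 2.11 TPM in the NT legs and at 15.9 ± 6.83 TPM in the *Uba1* siRNA legs (SD, n = 4 each), that is 26.3% of NT, and lower in 4 of 4 pairs (log2FC -1.98, limma adjusted p = 0.0527, or 0.0278 with the legs paired). Leaving out *Uba1* siRNA replicate 2, with the least *Uba1*, or replicate 4, with the most, gave *Uba1* a limma adjusted p of 0.00257 or 0.0206, and leaving out any of the other 6 muscles gave 0.0838 to 0.23. The summed TPM of 9 myofiber genes ranged from 126000 to 138000 with NT siRNAs and from 96200 to 139000 with *Uba1* siRNAs. Transcripts of the mitochondrial genome took 42.13% to 45.68% and 39.9% to 50.34% of the TPM. Of the 11530 genes that reached 1 TPM in at least 4 muscles, 81.8% had a higher mean log2 value with *Uba1* siRNAs and the median log2FC was 0.11. After median-ratio scaling, which aligns the muscles on the median gene, 50.7% were higher. Small positive differences of the 10 genes, and of genes named from the other pathway lists, are therefore also given after that scaling. For the STAT3 targets above 0, only their count after scaling is given.

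The values of the 8689 genes that were above 0 in all 8 muscles and under 5 TPM on average fell, for every gene, on whole multiples of what 1 read is worth (tolerance 0.02 of a read), so the number of reads behind each value could be worked out. The numbers are the smallest that fit, and the true ones may be a common multiple of them. The worth of 1 read differed by at most 1.09-fold from that in NT replicate 1, so the 8 muscles were covered about evenly. Reads ranged from 3 to 215 per muscle for *Il6*, from 25 to 41 for *Lif*, from 11 to 35 for *Osm*, from 11 to 29 for *Socs1* and from 160 to 331 for *Il6ra*. *Osmr* had 331 to 533, *Lifr* 1163 to 1659, *Stat3* 1948 to 2709, *Il6st* 5242 to 6636 and *Socs3* 424 to 1697 reads. Intervals made from reads cover counting error only. The library kit (TruSeq RNA v2) does not mark strand, and *Il6ra*, *Il6st*, *Lifr*, *Stat3*, *Socs1* and *Socs3* each share exon bases with a gene on the opposite strand, so reads in those bases cannot be assigned to either gene with certainty. *Il6*, *Lif*, *Osm* and *Osmr* share none.

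Of the 10 genes, 7 passed the filter of 1 TPM in at least 4 muscles and were tested with limma. *Lif*, *Osm* and *Socs1* were below it and were compared by exact permutation of the 8 muscles. *Il6* reached 1 TPM in every NT muscle but only in replicate 4 with *Uba1* siRNAs, so it passed the filter through the NT group. The shares set beside it are of genes that passed the same filter. Without the filter, the limma adjusted p of *Il6* was 0.187. None of the 7 passed an adjusted p of 0.05 (limma, Benjamini-Hochberg over all 11530 genes, of which 3 or 0.026% passed). At an unadjusted P under 0.05, 2 were lower, *Il6* and *Socs3*, against 1.98% of all genes tested, and 1 was higher, *Lifr*, against 16%. By the Kruskal-Wallis test, which is the test the study's methods name, 0 of all genes passed the adjusted p, and at an unadjusted P under 0.05 the same 2 members were lower, against 1.71%, and 2 were higher, *Lifr* and *Il6st*, against 17.5%. The median log2FC of the 7 was -0.034, against 0.11 for all genes tested, and 4 were lower and 3 higher.

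Pairing the legs of each mouse, as a replicate block in limma, brought 1 member past the adjusted p, *Socs3*, against 0.494% of all genes in either direction and 0.304% that were lower. At an unadjusted P under 0.05 the block left *Il6* and *Socs3* lower, against 2.8%, and placed *Il6ra* beside *Lifr* as higher, against 22.4%. Median-ratio scaling without the block placed *Stat3* beside *Il6* and *Socs3* as a member lower at that P, against 6.18% of all genes, and left 0 members higher, against 4.42%. No member passed the adjusted p with that scaling alone, where 0.191% of all genes passed as lower. With the block and the scaling together, *Socs3* again passed the adjusted p, against 0.659%, the same 3 members were lower at an unadjusted P under 0.05, against 8.77%, and 0 were higher, against 6.96%. The 2 members lower at an unadjusted P under 0.05 in every one of these settings were thus *Il6* and *Socs3*. Which receptor chains stood higher at that P depended on the setting.

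Among the ligands, *Il6* (GRCm39 chromosome 5, 30218112 to 30224979, plus strand) was at 2.06, 5.72, 5.20 and 3.94 TPM in NT replicates 1 to 4 and at 0.837, 0.764, 0.0854 and 1.36 TPM in the matching *Uba1* siRNA muscles. Every *Uba1* siRNA muscle lay below every NT muscle, a separation in this direction that 1.01% of all genes tested had, and it held after median-ratio scaling, as for 4.11%. The mean was 4.23 ± 1.63 TPM against 0.760 ± 0.521 TPM (SD, n = 4 each), which is 5.57-fold lower. On the log2(TPM + 1) scale, which understates the change of low genes, the log2FC was -1.56 (standard error 0.286, 95% confidence interval -2.21 to -0.92, limma adjusted p = 0.0909). Of the 11530 genes, 11 (0.0954%), *Il6* among them, had a log2FC as low as this or lower.

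The drop in *Il6* differed widely between mice. Relative to the NT leg, the *Uba1* siRNA leg held 40.6%, 13.4%, 1.64% and 34.4% in replicates 1 to 4. Replicate 3 had the lowest *Il6* of all muscles and rested on 3 reads against 189 in its NT leg, so that its 1.64% had an exact 95% interval from 0.335% to 4.87%. The interval of replicate 1, with 30 reads against 79, ran from 25.7% to 62.5%, so the legs of replicates 1 and 3 differed from each other by more than counting error. Over the 4 muscles, *Il6* had 622 reads with NT siRNAs and 112 with *Uba1* siRNAs. By exact permutation of its log2 values (two-sided) p was 0.0286, and 4 muscles against 4 can give no smaller p. Pairing the legs gave limma adjusted p = 0.0641, and over all alternatives that kept *Il6* the adjusted p ranged from 0.0641 to 0.32. With a pseudocount of 0.1 in place of 1, the log2FC was -2.57 (limma adjusted p = 0.142).

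*Lif* (chromosome 11, 4207557 to 4222514, plus strand) was at 0.598, 0.401, 0.568 and 0.396 TPM in the NT legs and at 0.514, 0.382, 0.429 and 0.454 TPM in the *Uba1* siRNA legs. The groups overlapped throughout, and *Lif* was lower in 3 of 4 pairs. The difference in mean log2(TPM + 1) was -0.043 (exact permutation test, two-sided, p = 0.486). *Osm*, which lies beside *Lif* on chromosome 11 (4186420 to 4191026, plus strand), was at 0.474, 0.995, 0.971 and 0.334 TPM in the NT legs and at 0.716, 0.704, 0.547 and 0.782 TPM in the *Uba1* siRNA legs. Its *Uba1* siRNA values all lay inside the NT range, with 2 pairs lower and 2 higher. The difference was 0.015 (exact permutation test, two-sided, p = 0.914) and changed sign, to -0.029, after median-ratio scaling. The pairs of *Osm* went both ways, from 56.4% to 234% of the NT leg, and that of replicate 4 (11 reads against 27) had an exact 95% interval from 113% to 524%.

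Of the receptor chains, *Il6st*, which encodes gp130 (chromosome 13, 112600604 to 112646620, plus strand), was at 33.6, 34.0, 32.2 and 32.5 TPM in the NT legs and at 34.0, 38.2, 38.7 and 35.1 TPM in the *Uba1* siRNA legs. It was higher in 4 of 4 pairs, with replicate 1 nearly level and the groups touching at 34.0 TPM. Its log2FC was 0.14 (95% confidence interval -0.0063 to 0.28, limma adjusted p = 0.294), and 0.018 after median-ratio scaling. *Lifr*, the LIF receptor that pairs with gp130 (chromosome 15, 7120095 to 7226970, plus strand), was at 7.96, 6.97, 7.84 and 8.72 TPM in the NT legs and at 8.73, 9.22, 10.6 and 9.40 TPM in the *Uba1* siRNA legs. The groups did not overlap, by a margin of 8.72 to 8.73 TPM, as was so in this direction for 10.6% of all genes tested, and they overlapped after median-ratio scaling, when 2.71% of genes were still apart. The log2FC of *Lifr* was 0.24 (standard error 0.0842, 95% confidence interval 0.053 to 0.43, limma adjusted p = 0.206), and 0.13 after that scaling.

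The IL-6 receptor alpha chain *Il6ra* (chromosome 3, 89771366 to 89820719, minus strand) was at 1.17, 1.54, 2.27 and 1.79 TPM in the NT legs and at 1.61, 1.73, 2.65 and 2.38 TPM in the *Uba1* siRNA legs. Mice differed more than siRNAs did, the same mouse (replicate 3) being highest in both groups, and the ranges overlapped although all 4 pairs were higher. Its log2FC was 0.20 (95% confidence interval -0.14 to 0.54, limma adjusted p = 0.475), the adjusted p with the legs paired was 0.166 (limma), and after median-ratio scaling the log2FC was 0.12. *Osmr*, the oncostatin M receptor chain (chromosome 15, 6843053 to 6904450, minus strand), was at 2.19, 2.07, 2.63 and 2.34 TPM in the NT legs and at 2.13, 1.75, 3.04 and 2.10 TPM in the *Uba1* siRNA legs. Its groups overlapped, with replicate 3 again highest in both. The log2FC was -0.034 (95% confidence interval -0.31 to 0.24, limma adjusted p = 0.886), and its sign depended on which muscle was left out (-0.14 to 0.042).

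*Stat3*, the transcription factor downstream of gp130 (chromosome 11, 100775924 to 100830450, minus strand), was at 16.1, 17.5, 18.1 and 18.3 TPM in the NT legs and at 15.5, 13.1, 19.6 and 14.7 TPM in the *Uba1* siRNA legs. It was lower in 3 of 4 pairs, and replicate 3 had the highest value of all 8 muscles with *Uba1* siRNAs. The log2FC was -0.16 (95% confidence interval -0.41 to 0.093, limma adjusted p = 0.444). After median-ratio scaling it was -0.27 (95% confidence interval -0.47 to -0.079, limma adjusted p = 0.298, unadjusted P = 0.0112). Activity of STAT3 depends on its phosphorylation, which mRNA levels do not show.

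The inhibitor *Socs3* (chromosome 11, 117856905 to 117860898, minus strand) was at 18.5, 37.9, 22.0 and 34.1 TPM in NT replicates 1 to 4 and at 10.9, 11.4, 10.1 and 20.1 TPM in the matching *Uba1* siRNA muscles. The groups overlapped by 1 muscle, *Uba1* siRNA replicate 4, which lay above the lowest NT muscle, and each *Uba1* siRNA leg was below its own NT leg. The mean was 28.1 ± 9.35 TPM against 13.2 ± 4.69 TPM (SD, n = 4 each), which is 2.14-fold lower. Relative to the NT leg, the *Uba1* siRNA leg held 59.0%, 30.2%, 46.0% and 59.0% in replicates 1 to 4. Counting error was small beside these differences, with 4924 reads in the NT muscles and 2291 in the *Uba1* siRNA muscles.

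Without pairing, the log2FC of *Socs3* was -1.03 (standard error 0.263, 95% confidence interval -1.63 to -0.44, limma adjusted p = 0.150), and the exact permutation test gave p = 0.0571 (two-sided). Mice with high *Socs3* in the NT leg did not all have high *Socs3* in the other leg, but replicate 4 was high in both. With the legs of each mouse paired as a block, the standard error was 0.152, the 95% confidence interval ran from -1.39 to -0.68 and *Socs3* fell past the threshold (limma adjusted p = 0.0478). With the block and median-ratio scaling together, the log2FC was -1.15 (limma adjusted p = 0.0386). Leaving out *Uba1* siRNA replicate 4 without pairing gave -1.24 (limma adjusted p = 0.0901).

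*Socs1*, the other SOCS inhibitor (chromosome 16, 10600104 to 10603875, minus strand), was at 0.283, 0.600, 0.483 and 0.284 TPM in the NT legs and at 0.419, 0.242, 0.689 and 0.453 TPM in the *Uba1* siRNA legs. The groups overlapped, with 3 of 4 pairs higher and replicate 2 lower. Its difference in mean log2(TPM + 1) was 0.036 (exact permutation test, two-sided, p = 0.743), or -0.0034 after median-ratio scaling. The muscles held 11 to 29 reads each.

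**Figure D2:**
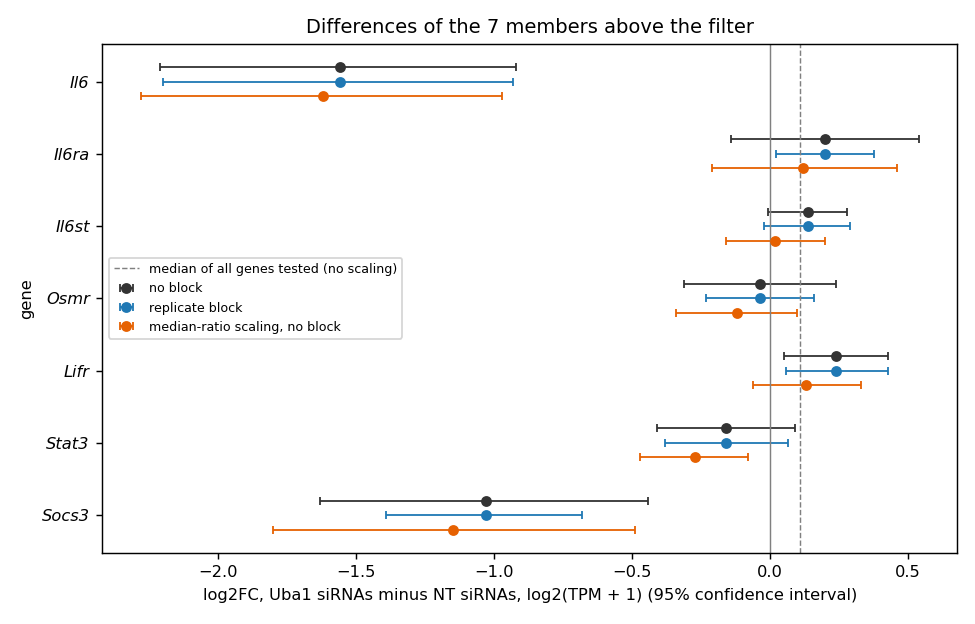
log2FC (*Uba1* siRNAs minus NT siRNAs on the log2(TPM + 1) scale) of the 7 tested genes with 95% confidence intervals from limma without pairing (black), with the legs of a mouse paired as a block (blue) and after median-ratio scaling (orange). The intervals of *Il6* and *Socs3* lie below 0 under all 3 settings, that of *Stat3* only after scaling, that of *Lifr* lies above 0 before scaling and that of *Il6ra* only with the block; the dashed line marks the median of all genes, 0.11.

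Cells other than myofibers can make these mRNAs, and in whole muscle fewer cells of a type and less RNA per cell cannot be told apart. Markers of such cells were therefore summed in each muscle. The 10 macrophage markers, all of them measured, ranged from 155 to 492 TPM with NT siRNAs and from 144 to 513 TPM with *Uba1* siRNAs, with a median log2FC of 0.033 (-0.085 after median-ratio scaling). The 7 neutrophil markers, of which 5 were above the filter and *Ly6g* under 0.1 TPM in every muscle, ranged from 17.3 to 55.5 and from 29.7 to 66.7 TPM and were higher in 3 of 4 pairs. The 5 tested had a median log2FC of 0.46 (0.38 after median-ratio scaling). All 5 were above 0 before and after scaling, against 81.8% and 50.7% of all genes tested. Of them, 1 was higher at an unadjusted P under 0.05, against 16% of all genes. It was *Mmp9*, higher in 4 of 4 pairs (log2FC 0.44, limma adjusted p = 0.224, unadjusted P = 0.0252). The 8 lymphocyte markers were all below the filter, *Cd3e* and *Cd8a* under 0.1 TPM throughout, and summed to 1.1 to 2.35 and 1.28 to 1.89 TPM. The 7 fibroadipogenic markers ranged from 496 to 1010 and from 591 to 1240 TPM and were higher in 4 of 4 pairs, with a median log2FC of 0.26 (0.14 after scaling). Endothelial markers ranged from 116 to 160 and from 129 to 155 TPM and satellite cell markers from 3.01 to 4.86 and from 3.76 to 4.93 TPM. The 3 smooth muscle markers were lower along with *Il6* and *Socs3*, their sum ranging from 72.5 to 134 and from 67.8 to 98.8 TPM and being lower in 3 of 4 pairs. All 3 had a log2FC below 0, with a median of -0.30 (-0.41 after median-ratio scaling), and *Cnn1* was lower in 4 of 4 pairs (log2FC -0.48, limma adjusted p = 0.173, unadjusted P = 0.00726). What part any of these cells had in the differences of the 10 genes was not tested.

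The rest of the IL-6 family was read from lists of genes by role, drawn up with earlier results of these data known. Of 9 other ligands, 4 were tested, 0 passed the adjusted p, and 1 was lower and 1 higher at an unadjusted P under 0.05 (1.98% and 16% of all genes), with a median log2FC of 0.017 against 0.11. *Cntf*, ciliary neurotrophic factor, was at 2.97 ± 0.299 TPM with NT siRNAs and 1.95 ± 0.617 TPM with *Uba1* siRNAs (SD, n = 4 each; log2FC -0.45, limma adjusted p = 0.184). *Ctf1*, cardiotrophin-1, was at 5.51 ± 0.568 and 7.27 ± 0.504 TPM (log2FC 0.35, limma adjusted p = 0.144, and 0.24 after scaling). Both signal through gp130 and LIFR, and in neither did the groups overlap, as was so for 1.01% of all genes on the lower side, where *Cntf* stood, and for 10.6% on the higher side, where *Ctf1* stood. *Clcf1* had a log2FC of -0.16, *Il11*, *Il27* and *Ebi3* were below the filter, and *Ctf2* and *Il31* were listed at 0 in every muscle. Of 4 other receptor chains, *Il11ra1* (log2FC 0.18, and 0.068 after scaling) and *Cntfr* (-0.018 and -0.13) were tested, and neither had an unadjusted P under 0.05.

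The kinases and other STATs lay to the same side as most genes. All 9 tested genes of the 10 on the list of JAKs and STATs had a log2FC above 0, as did 81.8% of all genes tested, and 8 did after median-ratio scaling, against 50.7%, with a median of 0.20 (0.083 after scaling) against 0.11 for all genes, and 0 passed the adjusted p. The kinase *Tyk2* had a log2FC of 0.29 (limma adjusted p = 0.204) and of 0.19 after scaling, *Jak3* of 0.20 and 0.10, and *Stat5b* of 0.16 and 0.042. Of 14 other inhibitors of the pathway, all tested, 0 passed the adjusted p and 5 were higher at an unadjusted P under 0.05, against 16% of all genes, with a median of 0.13 before and 0.019 after scaling. Those named by their P were *Pias4* (0.24, and 0.13 after scaling) and *Pias3* (0.25 and 0.15), which restrain STATs, *Socs4* (0.25 and 0.16), and the phosphatase *Ptpn1* (0.20 and 0.089). No tested inhibitor besides *Socs3* was lower at that P. The 4 partners with which the SOCS box forms a ubiquitin ligase were near 0: *Cul5* at 0.084, *Elob* at 0.069, *Eloc* at 0.029 and *Rnf7* at -0.0046. After scaling all 4 were below 0, at -0.032, -0.052, -0.090 and -0.13.

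Genes known to respond to STAT3 had a median log2FC below 0. Of 24 on the list, 21 were tested, 16 had a log2FC below 0 and 5 above it, and the median was -0.29, or -0.39 after median-ratio scaling. At an unadjusted P under 0.05, 7 were lower (*Bcl3*, *Myc*, *Nfil3*, *Mt2*, *Cebpb*, *Pim1* and *Mt1*), against 1.98% of all genes, and 0 were higher, against 16%. The list was drawn up with earlier results of these data known, so this count describes the list and is not independent evidence. No gene of the list passed the adjusted p without pairing, and 2 fell past it with the replicate block, *Myc* and *Bcl3*, against 0.304% of all genes. *Myc*, a growth regulator, was at 11.0 ± 2.63 and 4.20 ± 1.44 TPM (log2FC -1.21, limma adjusted p = 0.076, with the block 0.0268). *Bcl3*, a co-regulator of NF-kappaB, was at 3.88 ± 0.345 and 1.70 ± 0.430 TPM (log2FC -0.87, limma adjusted p = 0.0527, with the block 0.0405). The metallothionein *Mt2* had a log2FC of -1.41 (limma adjusted p = 0.129) and the transcription factor *Nfil3* of -0.73 (limma adjusted p = 0.129, or 0.0467 with the block and median-ratio scaling). Most of these genes also respond to other signals. The 5 genes of the list above 0 were *Lrg1*, *Timp1*, *Serpina3n*, *Ccnd1* and *Bcl2l1*, with a log2FC between 0.10 and 0.23. After scaling, 4 genes of the list were above 0. Of the genes below 0, *Cebpd* (-0.039), *Bcl6* (-0.046) and *Vegfa* (-0.021) lay near it.

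The cytokines IL-1 and TNF are known inducers of *Il6*, and their 9 genes were read for that reason. Of the 6 tested, 0 passed the adjusted p, 1 was lower at an unadjusted P under 0.05 (1.98% of all genes), and the median was 0.035. *Tnf* was at 2.82 ± 1.23 TPM with NT siRNAs and 1.44 ± 0.759 TPM with *Uba1* siRNAs (log2FC -0.65, limma adjusted p = 0.238) and lower in 4 of 4 pairs with overlapping groups. *Il1b* was at 7.08 ± 2.86 and 5.0 ± 0.674 TPM (log2FC -0.37, limma adjusted p = 0.371), likewise lower in 4 of 4 pairs. The receptors *Tnfrsf1a* (0.17, and 0.058 after scaling) and *Il1r1* (0.21 and 0.12) lay above 0.

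**Figure D3:**
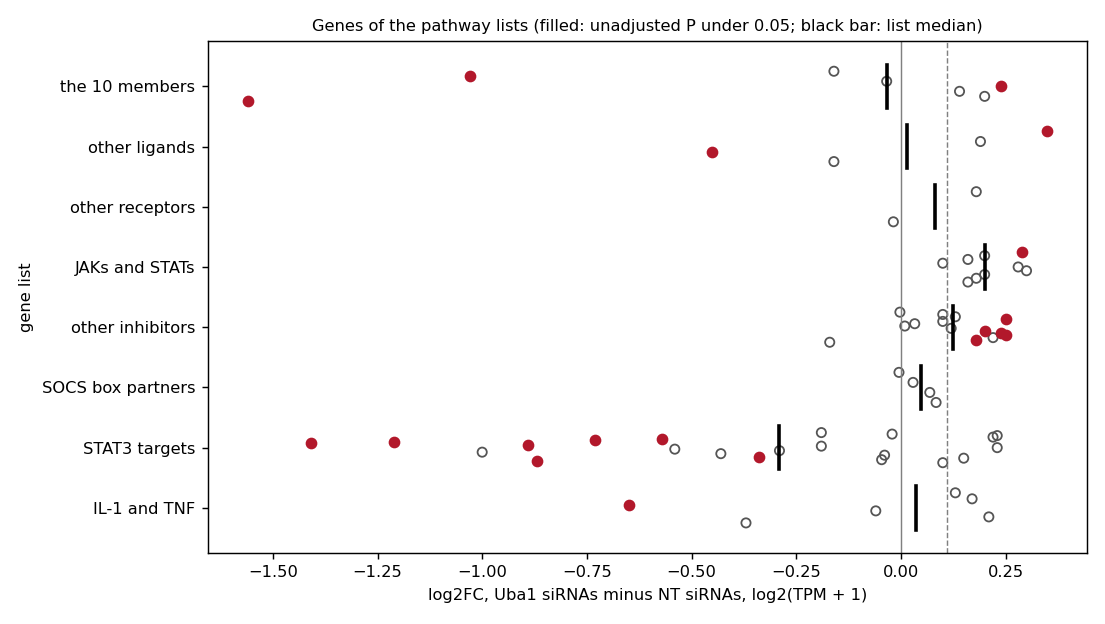
log2FC on the log2(TPM + 1) scale of every tested gene of the 10 IL-6 pathway genes and of the 7 other lists, where filled points have an unadjusted P under 0.05 (limma), black bars are list medians and the dashed line is the median of all genes tested. The points of the STAT3 target list spread to the left with a median of -0.29, while those of the JAK and STAT list lie at or right of 0.10.

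*Il6* had the largest moderated statistic of the 7 tested genes without pairing, and *Socs3* had it with the replicate block. By the unpaired fit *Il6* was taken for a search for like patterns, and the genes whose log2(TPM + 1) followed it most closely over the 8 muscles were *Gpr132* (Pearson's r = 0.966), *Cxcl1* (0.966), *Gem* (0.964), *Mt2* (0.961) and *Tnfaip6* (0.961). All 8 values of each gene come from the same libraries and include the difference between the groups, so these are descriptions of likeness. In *Cxcl1*, a neutrophil chemokine, the NT muscles were at 39.6, 66.7, 68.2 and 52.3 TPM and the *Uba1* siRNA muscles at 10.6, 10.8, 3.80 and 27.1 TPM. *Cxcl1* shared with *Il6* the lowest NT value in replicate 1, the lowest of all in *Uba1* siRNA replicate 3, and the highest of its group in *Uba1* siRNA replicate 4. Among the tested members, *Socs3* was the most like *Il6* (r = 0.904, place 31 of the genes tested), *Stat3* had r = 0.277, and *Lifr* and *Il6st* ran opposite to it (-0.860 and -0.815).

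**Figure D4:**
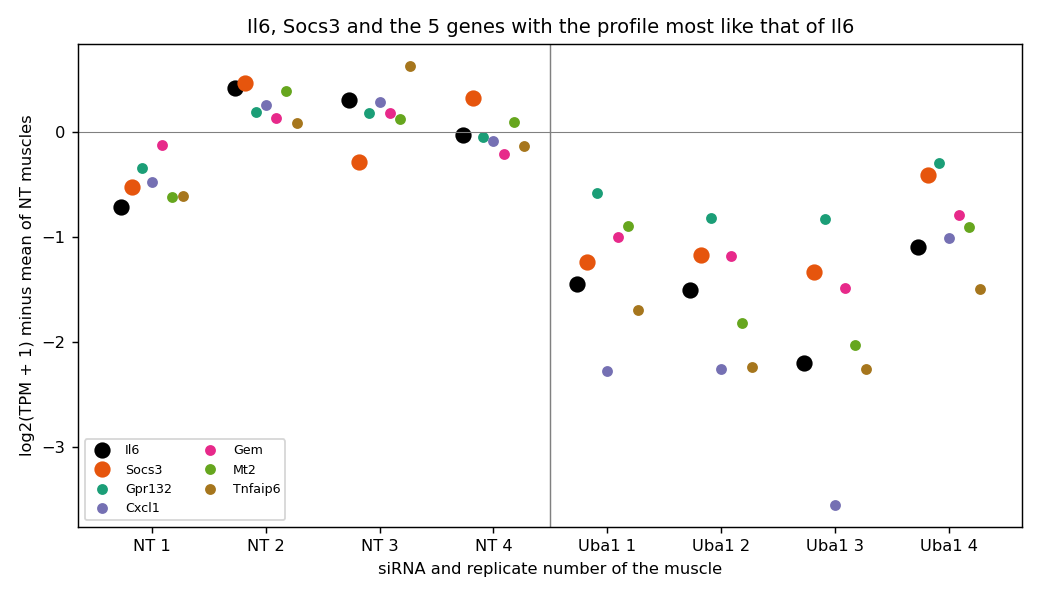
log2(TPM + 1) of *Il6*, *Socs3* (large points) and the 5 genes most like *Il6* in each muscle, as the difference from the mean of the NT muscles. In the NT muscles all 7 genes are below 0 in replicate 1 and above 0 in replicate 2, in every *Uba1* siRNA muscle all are below 0, and all are at their lowest in *Uba1* siRNA replicate 3.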

How the data were processed

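Total RNA of 8 TA muscles was sequenced as paired-end reads of 100 bp. The authors trimmed reads at a Phred score of 20, kept those of at least 50 bp, used CLC Genomics Workbench to map them to GRCm39, and deposited TPM per gene. The annotation and the treatment of reads matching several genes are not given in the sources used here. Each column of values was matched to its sample by title. Each TPM column sums to 1000000.

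Here log2(TPM + 1) was tested with limma (version 3.58.1 in R 4.3.3; lmFit, then eBayes with its trend option) over the 11530 genes that reached 1 TPM in at least 4 of the 8 muscles, with Benjamini-Hochberg adjustment over all of them. Single values were compared by exact permutation of the 70 ways to take 4 of 8 muscles (two-sided, SciPy 1.17.1). The Kruskal-Wallis test of the study's methods was an alternative. Its smallest p for 4 against 4 is shared by all genes whose groups do not overlap, and here 0 genes passed the adjustment. Equal numbers in the titles mark the legs of 1 mouse, and the deviations from the group means of same-numbered muscles correlated at -0.00037, 0.20, 0.58 and 0.54 for replicates 1 to 4, so the replicate number was used as a block in an alternative.

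The 10 genes and all lists were chosen with earlier results of these data known. Named are all 10, from each other list the genes past the adjusted p and otherwise up to 4 by unadjusted P, and the 5 genes most like *Il6*. Some genes that this rule names are not reported here. The names of the STAT3 targets beyond those 4, and of the untested ligands, were added after their values were seen. Alternatives were another pseudocount, no filter or a mean of 5 TPM, median-ratio scaling, quantile normalization, TPM without mitochondrial genes, the block with and without scaling, the Kruskal-Wallis test, and leaving out each muscle. Positions are from GENCODE M39 on GRCm39 and promoters from RefSeq. The number of muscles and, for genes under 1 TPM, the number of reads limit the precision, and intervals from reads are exact at 95%.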

Additional observations from a re-analysis of the deposited data

Results flagged for a closer look

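*Socs3* in *Uba1* siRNA replicate 4 was at 20.1 TPM, far above the 10.1 to 11.4 TPM of the other 3 muscles of its group. The gap to its nearest neighbor was 0.87 of the range of the group, beyond Dixon's critical value for 4 samples. The 10 genes in 2 groups made 20 searches of this kind, of which chance would mark about 1, and 1 was found. The NT leg of the same mouse, at 34.1 TPM, was the second highest of the NT muscles, and the 2 legs of that mouse stood in the same proportion, 59.0%, as those of replicate 1.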

How the results depend on the processing

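*Il6* and *Socs3* were lower under all alternatives that kept them, the log2FC of *Il6* lying between -2.57 and -1.35 and that of *Socs3* between -1.24 and -0.88. A mean of 5 TPM or more removed *Il6* from the test, which left 1 member lower at an unadjusted P under 0.05 in place of 2 (2 to 3 with each muscle left out). With the replicate block, 1 member passed the adjusted p (*Socs3*), and 1 with the block and median-ratio scaling, against 0 otherwise and 0 with each muscle left out. The fits with a muscle left out were unpaired, and no mouse was left out of the paired fit. The number of members higher at an unadjusted P under 0.05 was 1, and became 2 without a filter, with the block and by the Kruskal-Wallis test, 0 with median-ratio scaling, quantile normalization or the block with scaling, and 0 to 2 with each muscle left out (0 without NT replicate 2, 2 without *Uba1* siRNA replicate 1). Over all genes, 3 passed the adjusted p, and 11 at a mean of 5 TPM, 23 with median-ratio scaling, 28 with quantile normalization, 14 without mitochondrial genes, 57 with the block, 76 with the block and scaling, 0 by the Kruskal-Wallis test and 2 to 39 with each muscle left out (39 without *Uba1* siRNA replicate 4). The sign reversed for *Osm* (-0.029 with median-ratio scaling, -0.092 to 0.10 with muscles left out, below 0 without NT replicate 1 or 4 or *Uba1* siRNA replicate 4), *Osmr* (-0.14 to 0.042, above 0 without NT replicate 3 or *Uba1* siRNA replicate 2) and *Socs1* (-0.0034 with median-ratio scaling, -0.040 to 0.11, below 0 without NT replicate 1 or 4 or *Uba1* siRNA replicate 3). For the Kruskal-Wallis count, the smallest p of 4 against 4 did not pass the adjustment here. The cause of the other shifts was not tested. The block also placed *Il6ra* as higher at an unadjusted P under 0.05, and changed no other call of a member.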

Other observations

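After the group means were taken out, the genes whose deviations over the 8 muscles followed those of *Il6* most closely were *Hoxa5* (Pearson's r = 0.976), *Cox8b* (0.953), *Frat1* (0.941), *Cxcl2* (0.921) and *Bbs9* (0.921). Of the 5 genes, the chemokine *Cxcl2* had a log2FC of -1.52 (limma adjusted p = 0.165), and its NT muscles ranged from 2.94 to 12.9 TPM and its *Uba1* siRNA muscles from 1.00 to 4.20 TPM. The other 4 had a log2FC between -0.085 and 0.22. *Socs3* stood in place 91 of all genes by this measure (r = 0.706), with *Il6ra* at 0.195 and *Lifr* at -0.589.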
